A study of Mus musculus with 6 samples.

Results

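Inflammasomes are assemblies in the cytosol that activate inflammatory caspases, and 8 of their genes were described here in sorted bone marrow cultures with and without APPswe. The genes were chosen by name for their role: the sensors Nlrp3, Nlrc4, Aim2 and Mefv, the adaptor Pycard, the caspases Casp1 and Casp4, and the pore-forming protein Gsdmd. They are 8 of the 17469 genes in the deposited table, and all 8 had enough counts to be tested, among 12701 genes tested in all. Earlier results of these data were known when the 8 genes and the lists below were chosen, so their counts beside all genes are not an unbiased sample. Each sensor responds to a danger signal of its own and most recruit caspase-1 through the adaptor, which is encoded by Pycard and also called ASC. Active caspase-1 matures the cytokines IL-1β and IL-18 and cuts gasdermin D, whose fragments open pores in the plasma membrane in the lytic cell death called pyroptosis. The pathway is best known in macrophages and other myeloid cells, and its sensors and cytokines are commonly induced before an inflammasome assembles.

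RNA was taken from BMSCs, adherent cells grown from bone marrow, of untreated 6-month-old mice. The control mice carried OCN-Cre, in which the osteocalcin promoter drives Cre recombinase, together with Ai9, a reporter that gives tdTomato in cells where Cre was active. The TgAPPsweOCN;Ai9 mice carried both of these and a human APPswe transgene behind a loxP-stop-loxP sequence under the CAG promoter, so that the same Cre switches on the Swedish mutant of the amyloid precursor protein. The tdTomato+ cells were sorted and sequenced as 3 libraries of each genotype. All mouse lines were on a C57BL/6 background. A legend of the study counts mice as replicates for these sorted cells but ties no library to a mouse, and the sample labels do not either, so the p-values measure only the spread between libraries, which may be technical.

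Estimated counts summed to 19340810 to 22037840 per library, and 3 counts, taken as the lowest detectable level, were 0.136 to 0.155 CPM (counts scaled to the library total), a floor that covers counting error only. App had a log2 fold change of 0.45 (adjusted p = 7.87e-05, edgeR). Reads were mapped to the mouse genome, and how far those of the human transgene were counted under App was not measured. The summed levels of marker genes went against the name OB progenitors, which the study gives these cells, and the cells are called tdTomato+ cells here. The 15 myeloid markers were all tested and their FPKM (fragments scaled to transcript length and sequencing depth) summed to 18242 to 19073 in control and 15580 to 19336 in TgAPPsweOCN;Ai9 libraries. Lyz2 was the largest part of the myeloid sum in each library (mean FPKM 9057 in control and 6977 in TgAPPsweOCN;Ai9 libraries). The 15 stromal and osteoblast markers summed to 220.6 to 265.3 and 172 to 251.4. The mean FPKM in control was 83.5 for Sparc, 53.0 for Col1a2 and 45.5 for Col1a1, so stromal RNA was present too. Of the 14 tested, 2 were up-regulated, Dcn (log2 fold change 3.92) and Lum (6.25), and 0 were down-regulated (8.90% and 9.20% of all genes). At the adjusted p alone 4 were raised and 3 lowered (32.5% and 31.5% of all genes). Lum was near the floor in control, with counts of 0, 1 and 0 against 28, 35 and 38 in TgAPPsweOCN;Ai9 libraries. Counts of Dcn were 13, 22 and 13 in control and 51, 406 and 250 in TgAPPsweOCN;Ai9 libraries, a wide spread. Bglap, the osteocalcin gene itself, had too few counts to be tested. Of the myeloid markers, 5 were up-regulated, among them Adgre1 and Itgam, and 4 were down-regulated, among them Csf1r and Mrc1, beside 8.90% and 9.20% of all genes tested. Of the 8 dendritic cell markers, 4 were tested and their sum was 215.9 to 302.3 in control and 26.3 to 66.3 in TgAPPsweOCN;Ai9 libraries, with H2-Ab1 the largest part in each library. H2-Ab1 was down-regulated, and Xcr1, at an adjusted p of 0.000133 by edgeR, was up-regulated by 1.88 on the log2 scale. Xcr1 was low, with an FPKM of 0.14, 0.14 and 0.15 in control and 0.44, 0.43 and 0.5 in TgAPPsweOCN;Ai9 libraries. Itgax, at a mean FPKM of 28.7 in control and 12.6 in TgAPPsweOCN;Ai9 libraries, had a log2 fold change of -0.97 (adjusted p = 0.0507, edgeR). It was down-regulated in 5 of 14 alternatives. With limma on log2(FPKM + 1) the log2 fold changes of Lum (0.80) and Xcr1 (0.35) were under 1. Of the 11 neutrophil markers, 9 were tested, the sums overlapped (54.4 to 107.8 and 70.7 to 96.9) and Ly6g was listed at 0 in the control libraries. No lymphocyte marker was tested. In these bulk samples, fewer cells of a type and less RNA per cell cannot be told apart, and the part of cell composition in the results below was not tested.

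The sequences upstream of 4 genes are shown because these had the smallest adjusted p of the 8. Casp1, Casp4 and Pycard were higher in TgAPPsweOCN;Ai9 cells and Aim2 was lower. Each is 300 bases of RefSeq sequence on GRCm38.p6, the assembly called mm10, from 250 bases before the transcript start to 50 after it. A promoter was found for 7 of the 8 genes. Casp4 and Nlrp3 each have 2 transcript starts in the table, and the Casp4 sequence shown is that of the first.

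Casp1 (chr9:5298267-5298566, + strand): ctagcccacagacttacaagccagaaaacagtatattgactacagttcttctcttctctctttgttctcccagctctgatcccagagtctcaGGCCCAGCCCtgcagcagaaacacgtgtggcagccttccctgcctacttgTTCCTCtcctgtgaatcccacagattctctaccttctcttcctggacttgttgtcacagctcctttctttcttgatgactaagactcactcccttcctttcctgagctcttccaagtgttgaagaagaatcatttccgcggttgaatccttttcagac

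Casp4 (chr9:5308599-5308898, + strand): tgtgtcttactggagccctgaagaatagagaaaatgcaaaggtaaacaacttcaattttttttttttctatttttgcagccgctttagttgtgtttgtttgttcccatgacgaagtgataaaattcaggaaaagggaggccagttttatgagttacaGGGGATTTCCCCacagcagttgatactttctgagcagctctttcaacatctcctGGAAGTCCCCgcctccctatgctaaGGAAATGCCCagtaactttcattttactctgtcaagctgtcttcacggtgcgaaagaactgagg

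Pycard (chr7:127993818-127994117, - strand): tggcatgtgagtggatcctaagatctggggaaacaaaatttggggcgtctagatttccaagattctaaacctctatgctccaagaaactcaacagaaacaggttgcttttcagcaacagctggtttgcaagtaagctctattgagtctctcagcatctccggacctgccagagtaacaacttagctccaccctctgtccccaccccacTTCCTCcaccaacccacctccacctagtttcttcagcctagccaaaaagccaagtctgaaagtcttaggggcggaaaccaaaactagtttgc

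Aim2 (chr1:173420354-173420653, + strand): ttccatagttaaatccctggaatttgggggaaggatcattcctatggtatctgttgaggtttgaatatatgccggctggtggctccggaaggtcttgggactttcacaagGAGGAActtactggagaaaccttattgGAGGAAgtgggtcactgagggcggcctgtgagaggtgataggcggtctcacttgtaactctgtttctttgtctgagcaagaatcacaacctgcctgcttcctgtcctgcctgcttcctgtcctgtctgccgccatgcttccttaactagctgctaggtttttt

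Capitals mark matches, on either strand, to the motifs searched. The motif GAGGAA, the core bound by PU.1 and other ETS factors, is present in 28.3% of the 32851 promoters in the table and was found in those of Casp1, Pycard, Aim2 and the second start of Nlrp3. The NF-kB motif was first searched as GGGNNNNNCC, which 50.8% of all promoters hold, and it was found in those of Casp1, Casp4, Mefv and Nlrp3. A narrower spelling, GGGANNNNCC, was added after those matches were known. It is present in 20.7% of promoters and was found in those of Casp4 and the first start of Nlrp3. In Casp4 it matched on both strands at the same bases, positions -92 to -83 from the first start and -103 to -94 from the second, inside overlapping matches to the wider spelling. The interferon response motif TTTCNNTTTC (3.44% of promoters), the STAT motif TTCNNNGAA (8.3%) and the AP-1 motif TGANTCA (7.81%) had no match in any of the 7 genes. No motif matched in the Nlrc4 promoter. A match is a description of letters in this window, and binding was not measured.

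Of the 8 genes, 2 were up-regulated in TgAPPsweOCN;Ai9 cells (Casp1 and Casp4) and 0 down-regulated, called where edgeR's quasi-likelihood test gave an adjusted p of 0.05 or less and the log2 fold change reached 1 in either direction. Over all genes tested, 8.90% were up-regulated and 9.20% down-regulated. At the adjusted p alone, 3 of the 8 were raised, as were 32.5% of all genes, and 2 were lowered, as were 31.5% of all genes. These shares of the 8 at the adjusted p alone lie near the background, in which 64% of all genes tested differed either way. The median log2 fold change of the 8 genes was 0.14, against -0.02 over all genes tested. When libraries were scaled by their totals only, without TMM normalization, the median of all genes fell to -0.23, with 846 up-regulated and 1732 down-regulated genes in place of 1130 and 1169. FPKM of 7 of the 8 did not overlap between the genotypes, as was so for 72.3% of all genes tested. The direction of each of the 8 genes was the same under all 14 alternative settings.

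**Figure D1:**
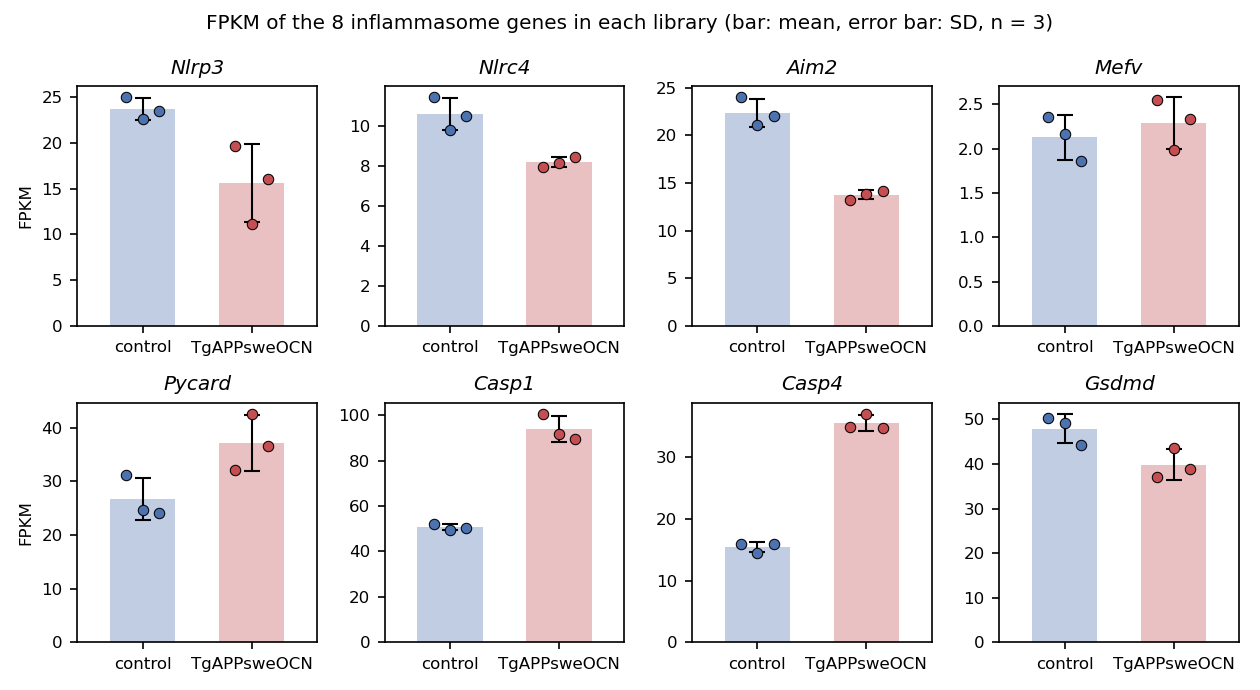
FPKM of the 8 genes (vertical axes, from 0) in 3 control and 3 TgAPPsweOCN;Ai9 libraries. Points are libraries, bars are means and error bars are SD. The genotypes overlapped for Mefv and were apart for the other 7, as for 72.3% of all genes tested. Casp1, Casp4 and Pycard were higher in every TgAPPsweOCN;Ai9 library.

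Aim2, a sensor that binds DNA in the cytosol, was lower in TgAPPsweOCN;Ai9 libraries. Its FPKM was 23.96, 21.1 and 21.97 in control libraries 1 to 3 and 13.21, 13.86 and 14.17 in TgAPPsweOCN;Ai9 libraries 1 to 3. All TgAPPsweOCN;Ai9 libraries lay below all control libraries, with little spread in either genotype. Aim2 (Entrez 383619, chr1:173349547-173466040) fell with a log2 fold change of -0.51 (edgeR adjusted p = 0.000191, standard error 0.0658). It passed the test under every alternative, with log2 fold changes of -0.72 to -0.47. Its RefSeq span overlaps Cadm3 and a tRNA gene, and its estimated counts were fractional in 3 libraries, so reads shared with other genes could have been split there.

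Nlrc4, which is engaged by Naip proteins once these have bound bacterial flagellin or secretion needles, was lower by a small amount. The FPKM was 11.41, 9.8 and 10.5 in control and 7.94, 8.12 and 8.43 in TgAPPsweOCN;Ai9 libraries. The 2 genotypes did not overlap. Nlrc4 (Entrez 268973, chr17:74426255-74459144) had a log2 fold change of -0.20 (edgeR adjusted p = 0.0301, standard error 0.0681). The call was lost with DESeq2 (adjusted p = 0.101) and without control replicate 1 or 3 or any one of the 3 TgAPPsweOCN;Ai9 libraries (edgeR adjusted p of 0.0561 to 0.0847). With scaling by library size only the log2 fold change was -0.41 (edgeR adjusted p = 0.000723). With limma on log2(FPKM + 1) and log2(FPKM + 0.1) it was -0.33 and -0.37 (limma adjusted p of 0.00406 and 0.00363).

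Nlrp3, the sensor of potassium efflux and membrane damage, was lower in every TgAPPsweOCN;Ai9 library but did not pass the test. Its FPKM was 24.97, 22.65 and 23.46 in control and 19.63, 11.1 and 16.04 in TgAPPsweOCN;Ai9 libraries. The TgAPPsweOCN;Ai9 libraries were spread widely, with an SD of 4.28 against 1.18 in control. Nlrp3 (Entrez 216799, chr11:59541569-59566955) had a log2 fold change of -0.39 (95% confidence interval -0.80 to 0.03, adjusted p = 0.0942, edgeR). Without TgAPPsweOCN replicate 1, the highest of the TgAPPsweOCN;Ai9 libraries, it was -0.60 (edgeR adjusted p = 0.00715), and without TgAPPsweOCN replicate 2, the lowest, it was -0.18 (edgeR adjusted p = 0.162).

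Mefv encodes pyrin, which senses the inactivation of the GTPase RhoA, and had the lowest level of the 8 genes. Its FPKM was 2.36, 2.16 and 1.86 in control and 2.55, 1.98 and 2.34 in TgAPPsweOCN;Ai9 libraries. The genotypes overlapped. Mefv (Entrez 54483, chr16:3706974-3718211) had a log2 fold change of 0.32 (95% confidence interval -0.07 to 0.71, adjusted p = 0.129, edgeR). Only without TgAPPsweOCN replicate 2, among the 14 alternatives, did it pass, at 0.46 (edgeR adjusted p = 0.0296). The log2 fold change of Mefv was 0.10 with scaling by library size only. It was 0.07 and 0.10 with limma on log2(FPKM + 1) and log2(FPKM + 0.1). The 4 sensors together held an FPKM of 55.7 to 62.7 in control and 35.1 to 43.3 in TgAPPsweOCN;Ai9 libraries.

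The adaptor moved the other way. The FPKM of Pycard was 31.24, 24.68 and 24.11 in control and 32.19, 42.56 and 36.62 in TgAPPsweOCN;Ai9 libraries. The genotypes were separate, though TgAPPsweOCN replicate 1 was close to control replicate 1. Pycard (Entrez 66824, chr7:127991373-127993867) rose with a log2 fold change of 0.69 (edgeR adjusted p = 0.00112, standard error 0.121), under the threshold for an up-regulated gene. It passed the test under every alternative, with log2 fold changes of 0.46 to 0.81.

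Casp1 and Casp4 showed the largest differences of the 8 genes. Caspase-1 is the effector of canonical inflammasomes. The FPKM of Casp1 was 52.11, 49.45 and 50.22 in control and 100.49, 91.5 and 89.61 in TgAPPsweOCN;Ai9 libraries. Every TgAPPsweOCN;Ai9 library lay far above the control libraries. Casp1 (Entrez 12362, chr9:5298517-5307281) rose 2.16-fold, with a log2 fold change of 1.11 (edgeR adjusted p = 2.78e-06, standard error 0.0695). With scaling by library size only, or with limma on FPKM, its log2 fold change was under 1 (0.88 at the lowest), and the rise still passed the test.

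Casp4, which binds bacterial lipopolysaccharide in the cytosol and cuts gasdermin D without an inflammasome sensor, rose most. Its FPKM was 15.94, 14.55 and 15.94 in control and 34.92, 37.04 and 34.73 in TgAPPsweOCN;Ai9 libraries. The lowest TgAPPsweOCN;Ai9 library lay well above the highest control library. Casp4 (Entrez 12363, chr9:5308849-5336791) rose 2.66-fold, with a log2 fold change of 1.41 (edgeR adjusted p = 7.43e-07, standard error 0.0692). It was up-regulated under every alternative, with log2 fold changes of 1.15 to 1.44. The FPKM of both caspases summed to 64 to 68.1 in control and 124.3 to 135.4 in TgAPPsweOCN;Ai9 libraries.

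Gsdmd, which encodes the pore-forming substrate of both caspases, did not pass the test. The FPKM was 50.41, 49.21 and 44.2 in control and 37.1, 43.66 and 38.87 in TgAPPsweOCN;Ai9 libraries. On the FPKM scale all TgAPPsweOCN;Ai9 libraries lay below the control libraries. After TMM normalization Gsdmd (Entrez 69146, chr15:75862144-75867408) had a log2 fold change of -0.05 (95% confidence interval -0.22 to 0.12, adjusted p = 0.585, edgeR). It depended on the scaling: by library size only the log2 fold change was -0.26 (edgeR adjusted p = 0.0175), close to the shift of the median of all genes under that scaling.

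An exact two-sided permutation test of the FPKM over libraries gave p = 0.1, the smallest that 3 libraries against 3 allow, for each gene except Mefv (exact p = 0.5), and 72.3% of all genes tested had FPKM apart in this way. In control libraries the order by mean FPKM was Casp1, Gsdmd, Pycard, Nlrp3, Aim2, Casp4, Nlrc4 and Mefv. Casp1 and Gsdmd overlapped there, and Nlrp3 overlapped with both Pycard and Aim2, which did not overlap with each other. In TgAPPsweOCN;Ai9 libraries the order was Casp1, Gsdmd, Pycard, Casp4, Nlrp3, Aim2, Nlrc4 and Mefv. Pycard overlapped there with both Gsdmd and Casp4, which did not overlap with each other, and Nlrp3 overlapped with Aim2. Casp4 moved from below Nlrp3 and Aim2 in control to above them.

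**Figure D2:**
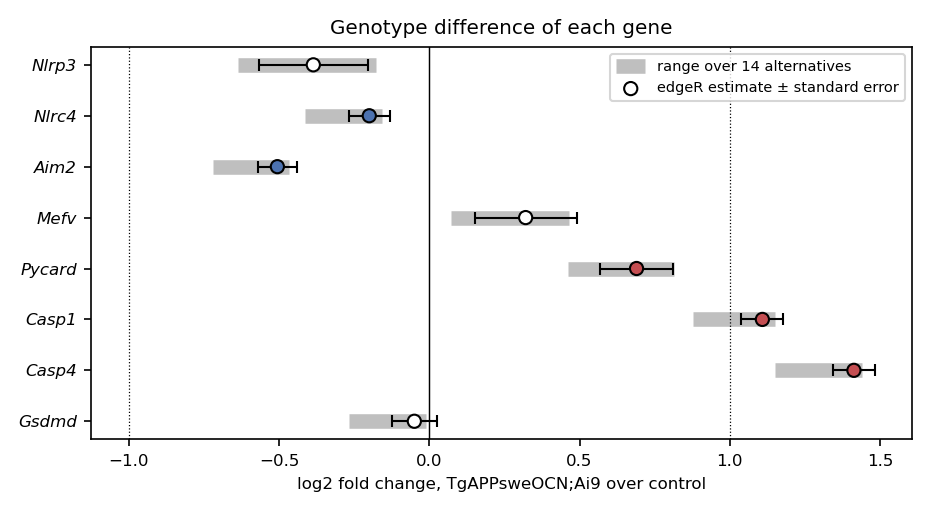
log2 fold change of TgAPPsweOCN;Ai9 over control (horizontal axis) for the 8 genes. Circles are edgeR estimates with standard errors, filled where the adjusted p was at or below 0.05, grey bars span 14 alternative settings and dotted lines mark -1 and 1. Casp1 and Casp4 lie beyond 1, and no grey bar crosses 0.

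The ratio of a pair of genes within a library does not depend on how libraries are scaled, and 6 ratios were compared, with exact permutation tests adjusted over the 6. The ratio of each sensor to the adaptor was lower in TgAPPsweOCN;Ai9 libraries for Nlrp3, Nlrc4 and Aim2. For Aim2 to Pycard it was 0.767, 0.855 and 0.911 in control and 0.410, 0.326 and 0.387 in TgAPPsweOCN;Ai9 libraries, a log2 difference of -1.18. For Nlrp3 to Pycard it was 0.799, 0.918 and 0.973 in control and 0.610, 0.261 and 0.438 in TgAPPsweOCN;Ai9 libraries, a difference of -1.12. For Nlrc4 to Pycard the log2 difference was -0.85. None of these ratios overlapped between genotypes, and each had exact p = 0.1 (0.12 adjusted). For Mefv to Pycard the difference was -0.37 and the genotypes overlapped (exact p = 0.3). That difference was -0.17 without TgAPPsweOCN replicate 2 and -0.55 without TgAPPsweOCN replicate 1.

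The Casp4 to Casp1 ratio was 0.306, 0.294 and 0.317 in control and 0.347, 0.405 and 0.388 in TgAPPsweOCN;Ai9 libraries. All TgAPPsweOCN;Ai9 libraries had the higher ratio, with a log2 difference of 0.31 (exact p = 0.1, 0.12 adjusted).

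**Figure D3:**
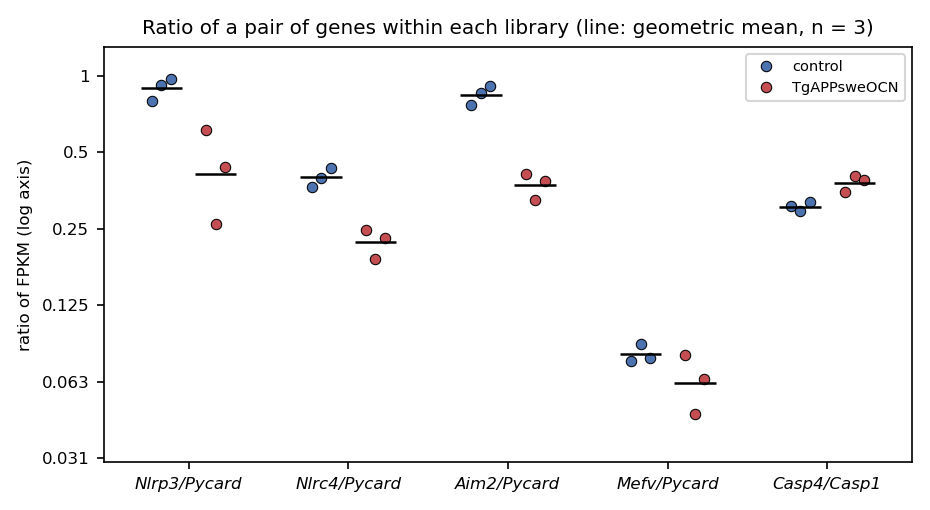
Ratio of FPKM of a pair of genes within each library (vertical log axis) for 4 sensor to Pycard ratios and for Casp4 to Casp1. Points are libraries and lines are geometric means of 3. The ratios of Nlrp3, Nlrc4 and Aim2 to Pycard were lower, and that of Casp4 to Casp1 higher, in all TgAPPsweOCN;Ai9 libraries.

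Several of these genes lie in clusters of relatives. Casp1 and Casp4 are neighbours, 1568 bases apart on chromosome 9, and both rose, while Casp12, 8651 bases beyond Casp4 and low in these cells, had a log2 fold change of -0.45 (adjusted p = 0.0741, edgeR). Aim2 lies at an end of a cluster of PYHIN genes on chromosome 1, which encode relatives of Aim2, most of them interferon-inducible and nucleic acid-binding. Aim2 was lower, while 5 of the 8 listed relatives tested were up-regulated (8.90% of all genes), from Ifi204 with a log2 fold change of 1.70 to Ifi205 with 3.94. Ifi211 (2.29), Ifi209 (2.97) and Ifi213 (3.01) lay between them. The other listed relatives were Ifi203 (log2 fold change 0.71), Mndal (0.57) and Ifi207 (0.08, adjusted p = 0.468). Ifi203 lost its call with scaling by library size only and with limma on FPKM, and Mndal in 9 alternatives, among them without control replicate 2 or 3 and without TgAPPsweOCN replicate 2 or 3 (edgeR adjusted p of 0.0697 to 0.101). The table holds 4 further relatives outside the list. Ifi206, the next gene after Aim2 at a distance of 2445 bases, had estimated counts of 148.4, 50 and 72 in control and 664.6, 2129 and 1375 in TgAPPsweOCN;Ai9 libraries, a log2 fold change of 3.995 (adjusted p = 0.000128, edgeR). Ifi208 had a log2 fold change of 3.43 (adjusted p = 0.00323, edgeR), and without overlap between genotypes its FPKM ranged from 1.36 to 14.29 in TgAPPsweOCN;Ai9 libraries. Ifi214 was at 0 counts in control and at 13.3 to 13.9 in TgAPPsweOCN;Ai9 libraries, and Ifi202b overlapped between the genotypes (adjusted p = 0.832, edgeR). Counts of all these relatives were fractional in 3 to 6 libraries, so their separate values are uncertain.

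The Naip receptors, which act upstream of Nlrc4, did not move together. Naip2 rose (log2 fold change 0.45, adjusted p = 0.000411), whereas Naip5 (-0.66, adjusted p = 0.000156) and Naip6 (-0.75, adjusted p = 8.24e-05) fell in the edgeR test. Naip1, at an FPKM of 0.17 to 0.29 in control, was also lower (-1.22, adjusted p = 0.0220), and lost its call without control replicate 1 or 2 or TgAPPsweOCN replicate 1 or 3 (edgeR adjusted p of 0.0539 to 0.0834) and with DESeq2 (adjusted p = 0.0548). With limma on FPKM it passed the adjusted p but not the threshold for a down-regulated gene (-0.19 and -0.86). These close copies had fractional counts in all 6 libraries.

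**Figure D4:**
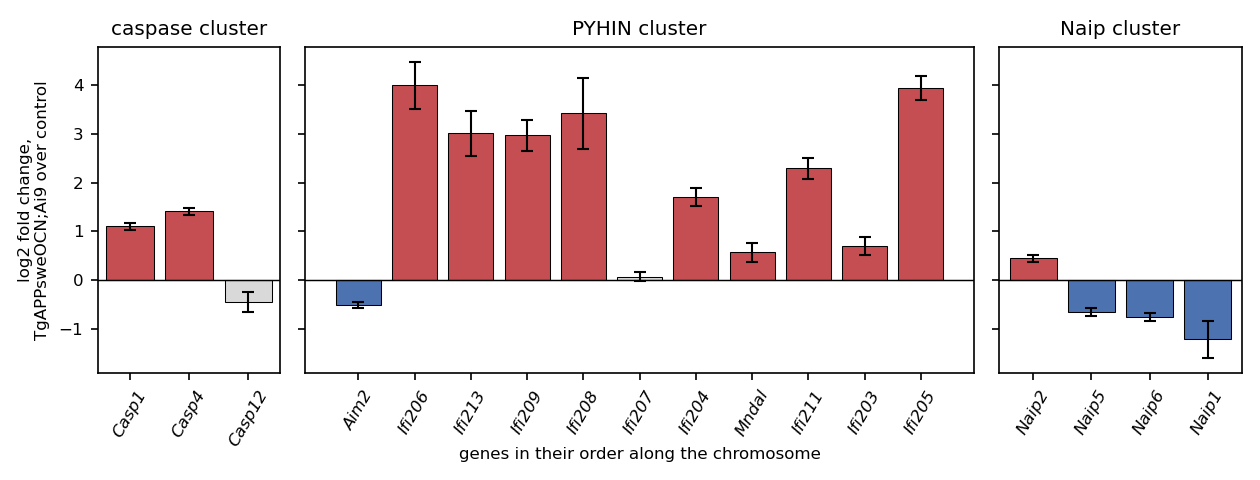
log2 fold change of TgAPPsweOCN;Ai9 over control (vertical axis, bars with standard errors) for genes of the caspase, PYHIN and Naip clusters in their order along the chromosome. Coloured bars passed the adjusted p of 0.05 and grey bars did not. Ifi206 and Ifi208 are outside the list, and Ifi214 and Ifi202b are not drawn. Aim2 is lower, and every other PYHIN gene drawn except Ifi207 is higher, and Naip2 is higher beside Naip5, Naip6 and Naip1.

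Other genes of the pathway were taken from lists of 84 symbols, of which 66 were tested. Of the symbols without values, 4 are older names of other listed genes and 1 is an older name of Ifi208, which is left out of the counts. Of the 66, 20 were up-regulated and 6 down-regulated, beside 8.90% and 9.20% of all genes tested. At the adjusted p alone 35 were raised and 19 lowered, beside 32.5% and 31.5% of all genes, and the median log2 fold change was 0.28, beside -0.02. The counts of single lists below are read against the same shares. Of the 24 symbols of other NLR and PYHIN sensors, 20 were tested. In that list 7 were up-regulated and 4 down-regulated (8.90% and 9.20% of all genes), and the 3 largest differences at the adjusted p were in Ifi205, Ifi213 and Ifi209. FPKM of Ifi205 was 0.73, 0.3 and 0.56 in control and 6.41, 7.71 and 7.05 in TgAPPsweOCN;Ai9 libraries. The other up-regulated sensors were Nod2 and Nlrc5 with Ifi204 and Ifi211, and the down-regulated ones were Nlrp1b, Nlrp10, Naip1 and Nlrc3. With limma on log2(FPKM + 1) the log2 fold changes of Nod2 (0.87), Nlrp10 (-0.69) and Nlrc3 (-0.98) fell short of 1 in size.

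The cytokines released through gasdermin D pores differed from each other. Il1b encodes IL-1β, and its estimated counts were 343, 419 and 397 in control and 5001, 1319 and 3053 in TgAPPsweOCN;Ai9 libraries. All TgAPPsweOCN;Ai9 libraries were higher, but they differed widely among themselves. Il1b rose with a log2 fold change of 3.08 (edgeR adjusted p = 0.000296, standard error 0.432). Counts are given because the FPKM of Il1b in TgAPPsweOCN replicate 2 implied a transcript of 0.411 kb, against 1.29 to 1.37 kb in the other libraries, which raises its FPKM there. The log2 ratio of Il1b to Casp1 was higher by 2.38 on FPKM and by 1.77 on CPM (exact p = 0.1, 0.12 adjusted on FPKM). Il18, the other substrate of caspase-1, had an FPKM of 12.67, 7.79 and 9.58 in control and 11.71, 8.85 and 9.62 in TgAPPsweOCN;Ai9 libraries. These values overlapped, and its log2 fold change of 0.29 did not pass the test (adjusted p = 0.151, edgeR), though it did without control replicate 1 (0.43, edgeR adjusted p = 0.0410).

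Il1a, which encodes the related cytokine IL-1α, had an FPKM of 0.11, 0.24 and 0.24 in control and 18.44, 1.96 and 10.73 in TgAPPsweOCN;Ai9 libraries. It rose with a log2 fold change of 5.77 (edgeR adjusted p = 0.000634, standard error 0.920), and TgAPPsweOCN replicate 2 was low for Il1a as it was for the Il1b counts and Nlrp3. The antagonists rose as well: Il1rn, which blocks the IL-1 receptor, with a log2 fold change of 2.30 (adjusted p = 2.19e-06), and Il18bp, which binds IL-18, with 0.89 (adjusted p = 0.000837, edgeR), or 1.02 without control replicate 1. Of the 6 cytokine genes 5 were tested, 3 were up-regulated and 0 down-regulated (8.90% and 9.20% of all genes).

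Of the 15 other caspases and death adaptors, 14 were tested, 3 were up-regulated and 1 was down-regulated (8.90% and 9.20% of all genes). Zbp1, a nucleic acid sensor that acts through Ripk3 and Mlkl in necroptosis, had an FPKM of 20.46, 11.26 and 13.91 in control and 176.43, 237.12 and 187.85 in TgAPPsweOCN;Ai9 libraries. Its log2 fold change was 3.96 (adjusted p = 2.27e-06, edgeR). Mlkl, the pore-forming executor of necroptosis, rose by 1.98 on the log2 scale (adjusted p = 4.04e-07, edgeR), and Cflar, which restrains caspase-8, by 1.93 (adjusted p = 8.28e-08, edgeR). Casp2 was down-regulated, with a log2 fold change of -1.16 (adjusted p = 8.62e-06, edgeR). Casp8, the initiator of death receptor apoptosis, had a log2 fold change of 0.15 (adjusted p = 0.0451, edgeR) that lost its call in 11 of 14 alternatives and was -0.07 with scaling by library size only. Among these 11 were the fits without control replicate 2 or 3 and without any one TgAPPsweOCN;Ai9 library (edgeR adjusted p of 0.0574 to 0.143).

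Of the 12 symbols of other gasdermins and membrane rupture genes, 2 were tested. Ninj1, which drives the final rupture of the plasma membrane, had an FPKM of 182.31, 146.2 and 154.72 in control and 108.24, 95.62 and 96.29 in TgAPPsweOCN;Ai9 libraries. It was lower in every TgAPPsweOCN;Ai9 library and fell with a log2 fold change of -0.47 (adjusted p = 0.00280, edgeR). Gsdme, another pore-forming gasdermin, had a log2 fold change of 0.48 (adjusted p = 0.122, edgeR), which passed without TgAPPsweOCN replicate 2 (0.75, edgeR adjusted p = 0.00102). Counts of the other gasdermin genes were too low for the test.

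Of the 27 symbols of regulators of inflammasome assembly, 25 were tested, 7 were up-regulated and 1 was down-regulated (8.90% and 9.20% of all genes). Serpinb1a, a protease inhibitor and 1 of the 7, had counts of 12, 1 and 1 in control and 10, 23 and 20 in TgAPPsweOCN;Ai9 libraries, which overlapped. It was not up-regulated in 7 alternatives. In 6 it missed the adjusted p, among them without control replicate 2 or 3 or TgAPPsweOCN replicate 2 or 3 (edgeR adjusted p of 0.106 to 0.142), and with limma on log2(FPKM + 1) its log2 fold change was 0.38. The 3 largest differences were in guanylate-binding proteins, interferon-inducible GTPases that expose bacterial lipopolysaccharide in the cytosol: Gbp2 (log2 fold change 3.32), Gbp5 (2.83) and Gbp3 (2.73). The FPKM of Gbp2 was 6.45, 5.01 and 5.86 in control and 45.88, 54.3 and 49.15 in TgAPPsweOCN;Ai9 libraries, far apart with little spread. P2rx7, the ATP-gated channel whose opening lets potassium leave the cell, was down-regulated, with an FPKM of 30.47, 25.87 and 27.81 in control and 9.9, 13.1 and 11.93 in TgAPPsweOCN;Ai9 libraries. Its log2 fold change was -1.05 (adjusted p = 3.46e-05, edgeR), and -0.99 without control replicate 1 and -0.94 without TgAPPsweOCN replicate 1, short of the threshold for a down-regulated gene. Txnip, a thioredoxin-binding protein described as a partner of Nlrp3, fell with a log2 fold change of -0.64 (adjusted p = 0.000233, edgeR). Nek7, the kinase that bridges Nlrp3 subunits, had a log2 fold change of 0.21 (adjusted p = 0.0400, edgeR), with overlapping FPKM of 26.03 to 31.43 in control and 27.99 to 30.14 in TgAPPsweOCN;Ai9 libraries. The call on Nek7 was lost in 8 of 14 alternatives, among them without control replicate 1 or 3 or TgAPPsweOCN replicate 1 or 3 (edgeR adjusted p of 0.0829 to 0.120), and with scaling by library size only its log2 fold change was -0.0018. Irf2, a transcription factor known to drive Gsdmd, fell with a log2 fold change of -0.83 (adjusted p = 2.58e-06, edgeR), which was -1.05 with scaling by library size only and -1.03 with limma on log2(FPKM + 0.1).

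**Figure D5:**
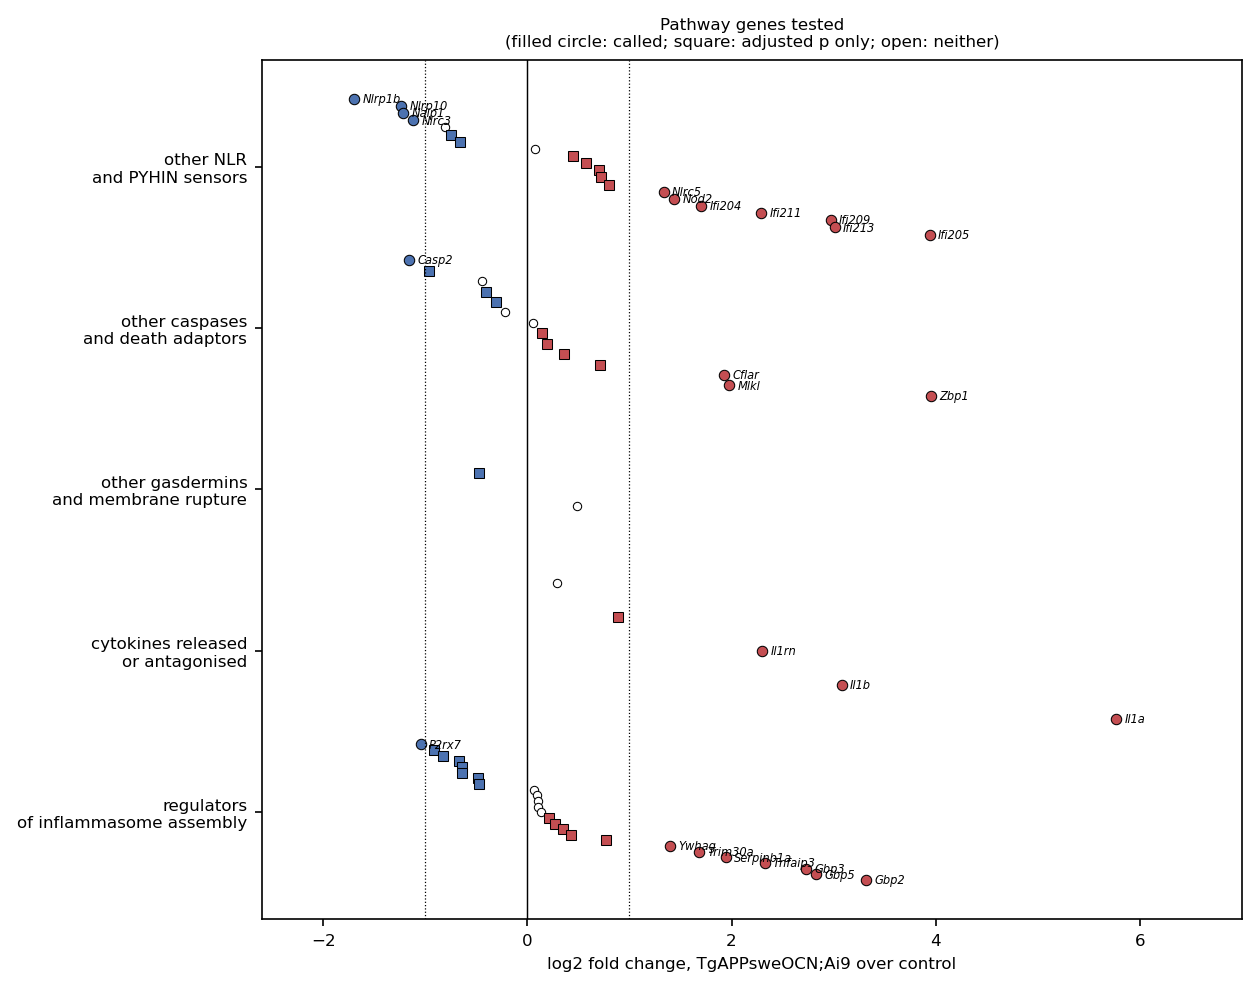
log2 fold change of TgAPPsweOCN;Ai9 over control (horizontal axis) for the 66 tested genes of the 5 pathway lists, one row of points per list. Filled circles are up- or down-regulated genes, squares passed the adjusted p only and open circles passed neither, with dotted lines at -1 and 1. Il1a has the highest value, and the 20 up-regulated and 6 down-regulated genes carry their names.

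For each of the 8 genes, the genes with the most similar pattern over the 6 libraries were found among the 11869 genes that had 10 or more counts in each library, by the root mean square difference of centred log2 CPM. Nearest to Casp1 were Ahi1 (difference 0.0297) and Hcls1 (0.0324), and nearest to Casp4 were Dcun1d3 (0.0513) and Samhd1 (0.0621). Nearest to Pycard were Slc2a9 (0.0641) and Pltp (0.0644). Nearest to Aim2 were Capn15 (0.0184) and Cabin1 (0.0222), to Nlrp3 Ch25h (0.0498) and Irx3 (0.0562), and to Nlrc4 Phf21a (0.0244) and Zranb1 (0.0253). Nearest to Gsdmd were Apeh (0.0276) and Tmem41a (0.0340), and to Mefv Mrpl46 (0.0890) and Mllt11 (0.0899). None of the 8 genes was among the nearest of another.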

How the data were processed

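RNA-seq was measured in sorted tdTomato+ cells, 3 libraries per genotype. The authors sequenced them on a DNBSEQ platform after accepting RNA integrity numbers above 2, removed rRNA reads and mapped with HISAT2 (submitters' notes: HISAT2 2.0.4, Bowtie2 2.2.5, RSEM 1.2.12, mm10). The authors deposited estimated counts and FPKM per gene, and whether strand was used is not given in the sources used here. A further table of the authors' fold changes and p-values was not used.

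Raw counts had been foreseen for the test, so the estimated counts were first rounded. The whole table was then fitted in edgeR 4.0.16 under R 4.3.3 by the quasi-likelihood test, after filterByExpr and TMM normalization, with genotype as the only term and Benjamini-Hochberg adjustment. Replicates were grouped by the genotype in the sample labels. FPKM were compared by exact permutation over libraries. Alternatives were DESeq2 1.42.0, RLE factors, library size only, other filters, limma 3.58.1 on log2-transformed FPKM (pseudocounts 1 and 0.1), a replicate block, and leaving out each library. The procedure was run on simulated data in which only a small set of genes changed, whereas 64% of tested genes were called here. That run therefore does not test the TMM scaling in a case like these data.

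The 8 genes and all lists were chosen with earlier results of these data known. The naming rule took all 8 genes, 9 pathway genes always, the 3 largest differences per list at the adjusted p, and the 2 nearest patterns per gene. The Naip and PYHIN relatives (Ifi206, Ifi208, Ifi214 and Ifi202b are in no list), the other up- and down-regulated pathway genes, Casp12, Il18bp and Irf2 were named after their values were seen. Some listed genes were not analysed here. A gene under the naming rule is not reported here. Positions and promoters came from RefSeq (GRCm38.p6).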

Additional observations from a re-analysis of the deposited data

How the results depend on the processing

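Scaling by library size only, limma on log2(FPKM + 1) and limma on log2(FPKM + 0.1) each gave 1 up-regulated gene of the 8 in place of 2 and 4 lowered genes in place of 2, and DESeq2 gave 1 lowered gene. Leaving out 1 library gave 1 to 2 lowered genes, with 1 without control replicate 1 or 3 and without TgAPPsweOCN replicate 2 or 3. Pathway genes down-regulated were 10 with library size only in place of 6, and the log2 ratio of Il1b to Casp1 was 1.77 on CPM in place of 2.38. Nlrp3 passed the test with library size only and with both limma fits (adjusted p of 0.0143 to 0.0148), and Gsdmd did so too (0.0156 to 0.0175). Apart from the FPKM scale of Il1b, the cause was not tested. Of the other settings for single genes of the 8, 97 kept the direction and the side of the adjusted p of 0.05, 9 came to pass it, 6 no longer passed it and 0 reversed. Over all genes tested, limma on log2(FPKM + 1) gave 593 up-regulated genes in place of 1130.

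Same-numbered libraries of the 2 genotypes had correlations of deviations of 0.0130, 0.00757 and 0.141, and other pairs had -0.0522 to 0.0245. With 3 libraries per genotype these values cannot decide whether the numbers pair the libraries. With the replicate block 2 of the 8 genes were up-regulated, 0 down-regulated, 3 raised and 3 lowered, with Nlrp3 the added one (log2 fold change -0.42, adjusted p = 0.0371, edgeR), and 19 pathway genes were up-regulated and 6 down-regulated. Of the pathway genes described, the block made Il18 pass (0.30, adjusted p = 0.0469, edgeR) and Mndal, Casp8, Nek7 and Serpinb1a fail (edgeR adjusted p of 0.0633 to 0.0922). Most other gasdermin genes were too low in counts for the test, and 3 libraries per genotype limit every exact test to 0.1.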
